A study of Mus musculus with 6 samples.

Results

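Transcripts of 10 genes of insulin and insulin-like growth factor (IGF) signalling were followed in RNA-seq libraries of Min6 cells, an insulin-secreting mouse tumour line that stands in for the pancreatic beta cell. The genes are the ligand gene Igf2, the receptor genes Insr, Igf1r and Igf2r, the receptor substrate genes Irs1 and Irs2, and the binding protein genes Igfbp3, Igfbp4, Igfbp5 and Igfbp7. They were chosen by name, with earlier results of these data known, and all 10 were found among the 53379 gene identifiers counted. The cells had received a lentiCRISPR v2 vector, which delivers Cas9 with a guide RNA (gRNA), against JunD in 3 libraries or against the Rosa26 locus, the negative control, in the other 3. All 6 libraries came from cells of passage 28 taken 8 days after the virus was given, the last 30 hours of which were spent under glucolipotoxic conditions, in both groups alike. The labels name neither the composition of that treatment nor an unstressed group, and do not say whether the transduced cells were a pool or a clone or whether replicates were separate cultures. The p-values therefore measure the spread between these libraries, which may be technical.

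IGF1, IGF2 and insulin bind receptor tyrosine kinases encoded by Igf1r and Insr, which phosphorylate the substrate proteins IRS1 and IRS2 and so engage PI3-kinase, AKT and mTOR. The product of Igf2r, the mannose 6-phosphate receptor, carries IGF2 to the lysosome without signalling through this route and also sorts lysosomal enzymes. IGF binding proteins hold IGFs in the extracellular space and limit or prolong their access to the receptor. In beta cells this pathway is known for its part in cell mass, survival and the response of the cell to its own insulin.

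The proximal promoters of the 4 genes that passed the test described further on are shown because JunD binds DNA as part of AP-1 dimers. Each is the run of 250 bases before a RefSeq transcript start, read 5′ to 3′ on the gene's strand, in build GRCm38.p6. The windows are chr7:67952007-67952256 (plus strand) for Igf1r, chr17:12769707-12769956 (minus strand) for Igf2r, chr11:99040994-99041243 (plus strand) for Igfbp4 and chr7:142657497-142657746 (minus strand) for Igf2, of whose 4 annotated starts the most downstream is shown. Capitals mark a GC box (GGGCGG), an E-box (CACGTG) or a TATA hexamer (TATAAA) on either strand, motifs picked after the sequences were seen.
Igf1r: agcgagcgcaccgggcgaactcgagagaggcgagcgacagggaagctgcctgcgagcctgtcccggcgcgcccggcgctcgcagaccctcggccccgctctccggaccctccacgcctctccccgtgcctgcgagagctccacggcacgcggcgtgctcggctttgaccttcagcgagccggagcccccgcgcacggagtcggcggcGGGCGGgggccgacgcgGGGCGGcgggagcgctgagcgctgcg
Igf2r: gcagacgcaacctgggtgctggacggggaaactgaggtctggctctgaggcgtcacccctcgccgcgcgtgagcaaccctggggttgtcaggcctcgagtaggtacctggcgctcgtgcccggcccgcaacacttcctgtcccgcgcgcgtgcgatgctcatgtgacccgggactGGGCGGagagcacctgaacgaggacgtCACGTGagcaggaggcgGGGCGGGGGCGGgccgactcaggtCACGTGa
Igfbp4: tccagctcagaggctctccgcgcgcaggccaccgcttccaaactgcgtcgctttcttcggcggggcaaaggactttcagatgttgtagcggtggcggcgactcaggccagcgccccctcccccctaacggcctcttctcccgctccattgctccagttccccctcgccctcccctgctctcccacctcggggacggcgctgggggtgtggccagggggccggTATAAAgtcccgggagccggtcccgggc
Igf2: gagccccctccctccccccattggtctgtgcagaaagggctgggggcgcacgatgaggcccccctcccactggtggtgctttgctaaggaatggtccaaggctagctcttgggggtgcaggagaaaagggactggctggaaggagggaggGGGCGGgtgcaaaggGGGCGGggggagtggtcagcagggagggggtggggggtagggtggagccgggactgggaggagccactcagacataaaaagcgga

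The AP-1 heptamer TGANTCA was in none of the 12 windows of the 9 genes with an entry in the promoter table, on either strand, and the cyclic AMP response octamer TGACGTCA was in none either. Among all 32851 windows of that length, 6.75% held the heptamer and 1.55% the octamer. The GC box was present in 32.7% of all windows, whose median GC content was 52.4%. Igf1r (77.6% GC) had 2 GC boxes, Igf2r (69.2%) had 3 and the Igf2 window shown (66%) had 2, all without a TATA hexamer. Of the genes whose windows are not printed, Igfbp7 had 4, Irs1 had 2, Irs2 had 1, and Igfbp3 and Igfbp5 had 0. Igfbp4 had no GC box and 1 TATA hexamer 28 bases before the start, a motif held by 12.4% of windows. Igf2r had 2 E-boxes, at 48 and 7 bases before the start, where 6.02% of windows held any. Irs1 and Irs2 each had 1 E-box. Aligned on it, the 24 bases that contain it matched at 16 positions, a count that includes the E-box letters, which match by construction.
Irs1: ccgtCACGTGttttgctcctctgg
Irs2: gagtCACGTGttgttttgctctta
The E-box of Irs1 began 115 bases before its start and that of Irs2 44 bases before. A match is a run of letters and not evidence of binding, and the 250-base windows do not cover distal elements.

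Of the 9 genes that passed the count filter, Igf1r, Igf2r and Igfbp4 fell and Igf2 rose in the JunD gRNA libraries, whereas Insr, Irs1, Irs2, Igfbp5 and Igfbp7 did not pass, in a fit on 5 libraries. That fit (edgeR quasi-likelihood test, Benjamini-Hochberg adjusted p under 0.05 over all genes) leaves out Rosa26 gRNA replicate 1, which stood apart from the rest, and "rose" and "fell" refer to it below. It called 2.86% of the 18296 genes tested, 1.45% (266 genes) as higher and 1.4% (257) as lower, a split that became 197 higher and 302 lower with upper quartile normalization. The fit on all 6 libraries called 0 of 17767 genes (0%) and so 0 of the 9. In that fit 5 of the 9 had an unadjusted p under 0.05, as did 2119 of all 17767 genes. On the same 6 libraries DESeq2 also called 0 of the 9 (0.377% of all genes). There limma-voom with sample weights, which gives a deviating library less weight, called Igf2 as higher and Igf1r, Igf2r and Igfbp4 as lower, and 1.65% of all genes. Igfbp3 was near the limit of detection and was not tested.

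The library left out was unlike the others in RNA composition. Levels are given as CPM, the read count scaled to the library total and to the TMM normalization factor, with totals from 41071566 to 50024931 counts per library. On this scale 4 structural RNAs (Rn7sk, Rpph1, mt-Rnr1 and mt-Rnr2) summed to 4371 CPM in Rosa26 gRNA replicate 1, against 1173 and 1308 CPM in the other 2 Rosa26 gRNA libraries and 1033 to 1161 CPM in the JunD gRNA libraries. The groups therefore also differed in these RNAs on the 5 libraries, where all 4 had negative log2 fold changes (median -0.38) and mt-Rnr1 (-0.20, edgeR adjusted p = 0.0253) and mt-Rnr2 (-0.19, 0.0242) fell; with the GC and length correction Rn7sk alone passed (-0.91, 0.0462). The part of RNA composition in the calls below was not tested. Jund itself stood at 38.5, 34.4 and 30.6 CPM in Rosa26 gRNA replicates 1 to 3 and at 22.7, 25.1 and 27.1 CPM in JunD gRNA replicates 1 to 3. Its log2 fold change was -0.38 ± 0.08 (SE, adjusted p = 0.00773, edgeR, 5 libraries) and -0.47 ± 0.11 (adjusted p = 0.417) with 6. When 1 of the 5 libraries was left out it ranged from -0.46 to -0.28. Of the exon bases of Jund, 52.6% also belong to the antisense gene Gm11175, and the strand setting of the counting is not given.

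Beta-cell markers were all detected, and their 10 genes summed to 50690 CPM in Rosa26 gRNA replicate 1, against 86670 to 97380 CPM elsewhere. On the 5 libraries 5 of these 10 rose, 1 fell and 4 did not pass, where 2.86% of all genes were called. The transcription factor genes Mafa, Pdx1 and Nkx6-1 rose, with log2 fold changes of 0.47 (edgeR adjusted p = 0.000117), 0.37 (1.45e-05) and 0.21 (0.00552), as did Ins2 and the glucose transporter gene Slc2a2 (0.29, 0.0171). Iapp, the gene of islet amyloid polypeptide, fell by 0.11 on the log2 scale (edgeR adjusted p = 0.0382). With the GC and length correction described further on, 5 were higher and 0 lower on the 5 libraries. On 6 libraries edgeR called 0 of the 10 without that correction. With it, 2 were higher and 0 lower, where 25 of all 17767 genes were called. Markers of fibroblasts, endothelial cells and leukocytes were near 0. The 8 fibroblast and stellate markers summed to between 1.92 and 3.77 CPM with the Rosa26 gRNA and between 2.09 and 3.15 CPM with the JunD gRNA, with Col3a1, Lum and Acta2 at 0 counts throughout. The 6 endothelial markers summed to between 3.52 and 4.69 CPM with the Rosa26 gRNA and between 3.63 and 4.36 CPM with the JunD gRNA. The 6 macrophage and leukocyte markers summed to between 3.68 and 4.89 CPM with the Rosa26 gRNA and between 2.53 and 3.75 CPM with the JunD gRNA, with Adgre1 at 0 in every library. The alpha, delta and PP cell list, led by the glucagon gene Gcg, summed to 531 to 732 CPM with the Rosa26 gRNA and 686 to 711 CPM with the JunD gRNA, and the acinar and ductal list, led by the keratin gene Krt7, to 396 to 497 CPM with the Rosa26 gRNA and 542 to 556 CPM with the JunD gRNA. On the 5 libraries the pancreatic polypeptide gene Ppy fell by 0.70 on the log2 scale (edgeR adjusted p = 1.45e-05) and Krt7 rose by 0.19 (0.00508), and no other gene of these 5 lists passed. The part of these markers in the results was not tested. In these bulk libraries a smaller number of cells with a transcript and less of it per cell cannot be told apart.

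Per kilobase of annotated exon, Irs2 and Igf2r were the most abundant of the 10 transcripts and Igfbp3 and Igfbp5 the least. The place of Igf2 in this order is uncertain, for a reason given below. RPKM, the CPM divided by the kilobases of annotated exon and here TMM-scaled, averaged 49.9 ± 1.90 (SD over all 6 libraries) for Irs2 and 45.6 ± 4.49 for Igf2r, and the ranges of these genes overlapped. Igf1r followed with 34.1 ± 5.13, Igfbp7 with 32.5 ± 6.30 and Igf2 with 19.2 ± 2.88, each overlapping its neighbour in range over the 6 libraries. Library by library, Igf1r was above Igfbp7 in all Rosa26 gRNA libraries and below it in all JunD gRNA libraries. Igf2 was below Igfbp7 within every library. Igfbp4 at 8.98 ± 1.33, Insr at 5.08 ± 0.406, Irs1 at 2.89 ± 0.102 and Igfbp5 at 0.307 ± 0.0477 did not overlap the gene next in order. Insr was thus below Igf1r in every library on the per-length scale, with ranges of 4.61 to 5.78 and 28.8 to 42.7 RPKM. These levels depend on how reads of overlapping genes were counted. Of the exon bases of Igf2, 62.8% also belong to the read-through gene Gm49394, and of those of Irs1, 30.9% also belong to Gm9747 on the other strand. Both overlapping genes had 0 counts in all 6 libraries, and no source used here gives the treatment of reads that fall in 2 genes. If such reads were dropped, 37.2% of the exon bases of Igf2 and 69.1% of those of Irs1 could be counted. Both levels would then be too low here, and whether Igf2 ranks below Irs2 and Igf2r is not settled.

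**Figure D1:**
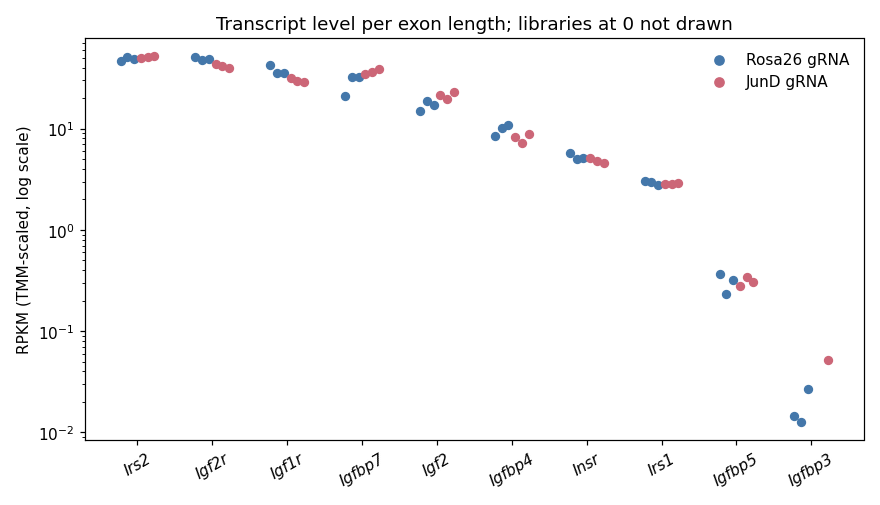
Transcript level of the 10 genes per kilobase of annotated exon (RPKM, TMM-scaled, log axis), ordered by mean, with 1 point per library and the 3 Rosa26 gRNA libraries left of the 3 JunD gRNA libraries. Irs2 averages 49.9 RPKM and Insr 5.08, and Igfbp3 is drawn only where it had a count.

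Igf2, the fetal-type IGF ligand and the only IGF ligand gene detected here, was higher with the JunD gRNA. It stood at 86.1, 106 and 98.2 CPM in Rosa26 gRNA replicates 1 to 3 and at 123, 113 and 131 CPM in JunD gRNA replicates 1 to 3. All 3 JunD gRNA libraries lay above all 3 Rosa26 gRNA libraries, and Rosa26 gRNA replicate 1 was the lowest. The log2 fold change of Igf2 was 0.26 ± 0.06 (SE) on the 5 libraries, a rise of 19.7% (edgeR adjusted p = 0.0103), and 0.34 ± 0.09 on 6 (adjusted p = 0.417). Igf2 (ENSMUSG00000048583.16) lies on the minus strand of chromosome 7 from 142650766 to 142666816 (GRCm38, the assembly mm10 names), with 9 annotated transcripts. Ins2 lies 11839 bases upstream on the same strand, and the read-through model Gm49394 reaches from Igf2 towards it, to 142669942.

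The antisense gene Igf2os, which covers the upstream part of Igf2 on the plus strand, also rose. Igf2os had a log2 fold change of 0.28 ± 0.06 (SE, edgeR adjusted p = 0.0103) on the 5 libraries and 0.18 ± 0.10 (adjusted p = 0.436) on 6. Its level was 57.4, 48.8 and 45.9 CPM in Rosa26 gRNA replicates 1 to 3 and 57.4, 60.1 and 54.6 CPM with the JunD gRNA, so that replicate 1 lay within the JunD gRNA range. Igf2os and Igf2 share 98 exon bases, and Igf2os shares 1142 (21.4% of its own) with the read-through gene Gm49394 on the opposite strand. Since the strand setting of the counting is not given, reads from the 2 strands cannot be told apart. H19, the imprinted non-coding RNA gene beyond Igf2 that uses the same enhancers, had 2 counts in JunD gRNA replicate 1 and 0 in the other 5 libraries.

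Igf1r, the receptor of IGF1 and IGF2, was lower with the JunD gRNA. It stood at 717, 599 and 600 CPM in Rosa26 gRNA replicates 1 to 3, and at 531, 500 and 484 CPM in JunD gRNA replicates 1 to 3. The groups did not overlap, and replicate 1 of the control was the highest of all. On the 5 libraries Igf1r fell by 0.25 ± 0.04 (SE) on the log2 scale, a change of -15.8% (edgeR adjusted p = 0.000572). With 6 libraries the log2 fold change was -0.34 ± 0.09 (adjusted p = 0.417). The gene (ENSMUSG00000005533.10) spans 67952827 to 68233668 on the plus strand of chromosome 7 and has 16791 annotated exon bases, the longest of the 10.

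Igf2r, which clears IGF2 from the cell surface, was lower as well. Its level was 479, 443 and 456 CPM in Rosa26 gRNA replicates 1 to 3 and 409.5, 390 and 370 CPM in JunD gRNA replicates 1 to 3. No JunD gRNA library reached any Rosa26 gRNA library. On the 5 libraries Igf2r fell by 0.21 ± 0.04 (SE) on the log2 scale, or by 13.3% (edgeR adjusted p = 0.00602), and its log2 fold change on 6 was -0.24 ± 0.07 (adjusted p = 0.417). Igf2r (ENSMUSG00000023830.13) lies on the minus strand of chromosome 17 from 12682406 to 12769664. The imprinted antisense transcript Airn, which starts within Igf2r and was detected at 3.07 to 4.70 CPM, did not pass. Igf2 rose and Igf2r fell in the same comparison, so the direction of the ligand was opposite to that of both its signalling and its clearance receptor.

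Insr, the insulin receptor, did not pass. It stood at 79.4, 68.4 and 71.1 CPM with the Rosa26 gRNA and 71.1, 65.6 and 63.4 CPM with the JunD gRNA. The groups overlapped. Its log2 fold change of -0.06 ± 0.06 (SE, edgeR adjusted p = 0.632) on the 5 libraries was -0.13 ± 0.08 (adjusted p = 0.486) on 6, and the sign turned after the GC and length correction described further on. Insr is on the minus strand of chromosome 8 from 3122061 to 3279617. The insulin receptor-related gene Insrr, which encodes an alkali-sensing relative of the receptor, had a log2 fold change of 0.16 ± 0.04 and rose (edgeR adjusted p = 0.0444). Insrr stood at 114 to 125 CPM with the Rosa26 gRNA and 136 to 143 CPM with the JunD gRNA, but missed the threshold under several settings, among them that correction (adjusted p = 0.0774), with upper quartile normalization (0.063) and without JunD gRNA replicate 1 (0.0879).

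**Figure D2:**
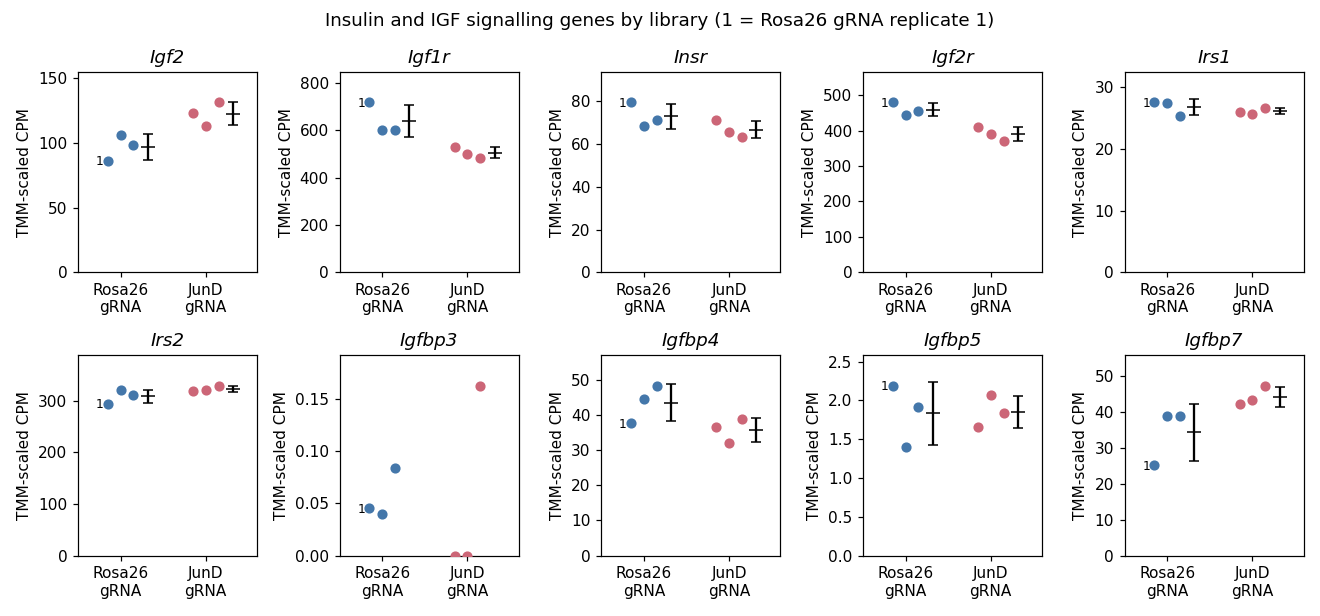
TMM-scaled CPM of the 10 genes in each library (points, axes from 0) for the Rosa26 gRNA and JunD gRNA groups, with the mean and SD of the 3 libraries as a bar except for Igfbp3; the digit 1 marks Rosa26 gRNA replicate 1. Igf1r and Igf2r lie lower and Igf2 and Igfbp7 higher in all 3 JunD gRNA libraries, while Igfbp4 overlaps through Rosa26 gRNA replicate 1.

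The substrate genes were the steadiest of the 10. Irs2, the main receptor substrate of the beta cell and a known cyclic AMP-responsive gene, stood at 294, 320 and 310 CPM with the Rosa26 gRNA and 318, 320 and 329 CPM with the JunD gRNA. Its log2 fold change was 0.03 ± 0.04 (SE) on the 5 libraries (edgeR adjusted p = 0.758) and 0.07 ± 0.06 on 6 (adjusted p = 0.626). Irs1 stood at 27.6, 27.5 and 25.3 CPM with the Rosa26 gRNA and 25.97, 25.7 and 26.7 CPM with the JunD gRNA. For Irs1 the log2 fold change was -0.02 ± 0.07 (edgeR adjusted p = 0.951) on the 5 libraries and -0.04 ± 0.08 on 6, and its sign turned after the GC and length correction. The spread between libraries covered both differences. Irs1 is on the minus strand of chromosome 1 from 82233101 to 82291416 and Irs2 on the minus strand of chromosome 8 from 10984681 to 11008458, each with 1 annotated transcript.

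Among the binding proteins Igfbp4, known mainly as an inhibitor of IGF action, fell. It stood at 37.8, 44.6 and 48.4 CPM in Rosa26 gRNA replicates 1 to 3 and 36.5, 31.99 and 38.8 CPM in JunD gRNA replicates 1 to 3. The groups overlapped through Rosa26 gRNA replicate 1, which was below JunD gRNA replicate 3. On CPM without TMM scaling the groups did not overlap. On the 5 libraries Igfbp4 had a log2 fold change of -0.38 ± 0.07 (SE), a change of -23.0% and the largest of the 9 tested genes (edgeR adjusted p = 0.004). With 6 libraries it was -0.29 ± 0.11 (adjusted p = 0.417). Unlike Igf1r, Igf2r and Igf2, whose differences were larger with the library that stood apart, that of Igfbp4 was smaller with it. Igfbp4 (ENSMUSG00000017493.12) lies on the plus strand of chromosome 11 from 99041244 to 99054392.

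Igfbp7, a secreted protein related to the IGF binding proteins with low affinity for IGFs, did not pass. Its level was 25.2, 38.9 and 38.8 CPM with the Rosa26 gRNA and 42.1, 43.4 and 47.4 CPM with the JunD gRNA. The groups did not overlap, and Rosa26 gRNA replicate 1 was far below the rest. Its log2 fold change was 0.19 ± 0.06 (SE, edgeR adjusted p = 0.111) on the 5 libraries and 0.37 ± 0.16 on 6 (adjusted p = 0.417). Over all 10 genes, groups that do not overlap were found for 4 (2 higher and 2 lower), against 24.8% of the 17767 genes tested (12.9% higher and 11.9% lower).

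Igfbp5 and Igfbp3 were scarce. Igfbp5, which binds IGFs and matrix, had 97, 70 and 91 counts with the Rosa26 gRNA and 69, 85 and 90 counts with the JunD gRNA. At 1.40 to 2.19 CPM its log2 fold change of 0.16 ± 0.25 (SE, edgeR adjusted p = 0.823) on the 5 libraries and 0.02 ± 0.23 on 6 had an error larger than itself. Igfbp3, the main carrier of IGFs in blood, had 2, 2 and 4 counts with the Rosa26 gRNA and 0, 0 and 8 counts with the JunD gRNA. A count of 0 allows a level of up to 0.073 CPM (3 counts, counting error only) in JunD gRNA replicate 2 and up to 0.0722 CPM in JunD gRNA replicate 1. A difference in Igfbp3 was not detectable at this depth.

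**Figure D3:**
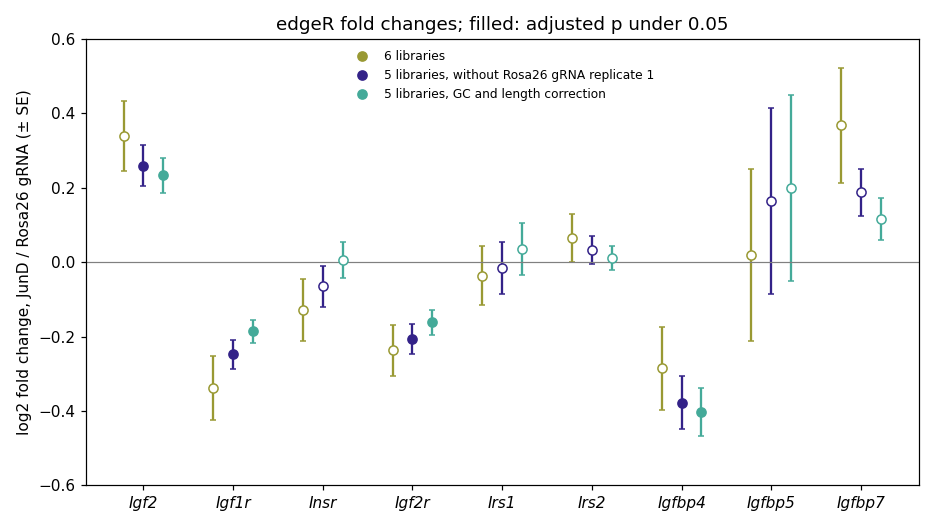
The edgeR log2 fold change (JunD gRNA over Rosa26 gRNA) with its SE for the 9 tested genes, on 6 libraries, on 5 libraries, and on 5 libraries with the GC and length correction; filled points have an adjusted p under 0.05. Igf2, Igf1r, Igf2r and Igfbp4 are filled on both 5-library fits and none is filled on 6.

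Fold changes on the 5 libraries followed transcript GC content across genes, and the calls on the 4 genes were therefore set beside a fit that corrects each library for GC content and transcript length. Over 18270 genes, which are not independent replicates and share these libraries, the Spearman correlation of the 5-library fold change with GC content was 0.277 and with transcript length -0.132. The 4 genes lay on either side of the median GC content of 49.6%, with 49.4% for Igf1r, 51.2% for Igf2r, 55.1% for Igfbp4 and 55.8% for Igf2. All 4 were longer than the median of 2870 bases. Their longest transcripts had 11409 bases for Igf1r, 8887 for Igf2r, 3831 for Igfbp4 and 4722 for Igf2. Genes between 47.5% and 50% GC had a median log2 fold change of -0.01, and those between 55% and 57.5% one of 0.05. After the correction Igf1r was at -0.19 (edgeR adjusted p = 0.000335), Igf2r at -0.16 (0.00407), Igfbp4 at -0.40 (0.000232) and Igf2 at 0.23 (0.00381). All 4 still passed, where the corrected fit called 3.15% of all genes, 366 as higher and 210 as lower. Insr, of low GC content (46.8%) and with a longest transcript of 9355 bases, went to 0.01, and Igfbp7, of 58.8% GC, to 0.11.

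**Figure D4:**
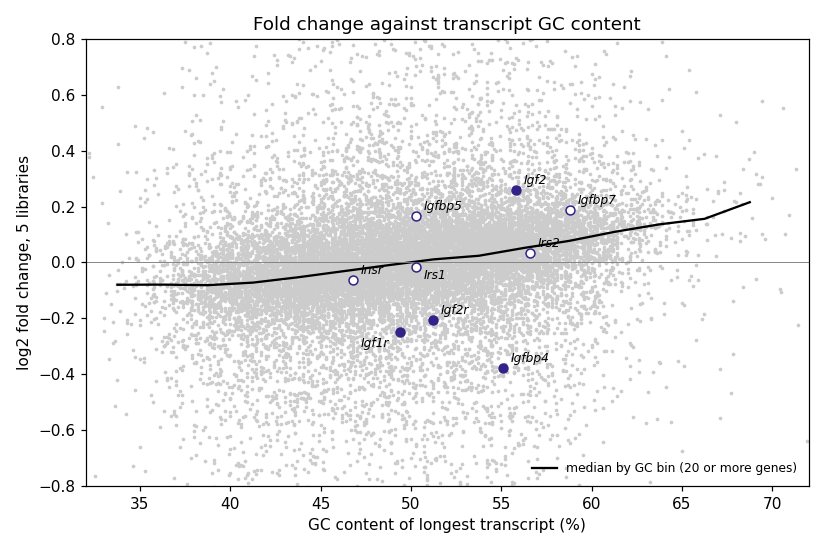
Each grey point is 1 gene, with the GC content of its longest transcript on the x axis and its log2 fold change on 5 libraries on the y axis, and the line joins medians by GC bin. Filled marks are genes of the 9 with an adjusted p under 0.05; Igfbp4, at 55.1% GC, lies below the line and Igf2, at 55.8%, above it.

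The calls rested on both remaining control libraries. Leaving out Rosa26 gRNA replicate 2 or 3 from the 5 leaves 1 control library, whose spread is assumed to be that of the others. The calls on the 4 genes were then lost, as were most calls over all genes. The log2 fold changes over every removal of 1 of the 5 libraries stayed between -0.28 and -0.22 for Igf1r, -0.24 and -0.17 for Igf2r, -0.44 and -0.30 for Igfbp4, and 0.20 and 0.33 for Igf2. No removal changed the direction of these 4.

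Of 70 tested genes among 78 others of the pathway, 4 rose, 1 fell and 65 did not pass on the 5 libraries, where 2.86% of all genes were called (1.45% higher and 1.4% lower). The list's median log2 fold change was 0.01, against -0.003 over all genes tested. On 6 libraries 0 of 69 passed in edgeR and 0 in DESeq2. The ligand Ins2 rose by 0.11 ± 0.03 on the log2 scale (edgeR adjusted p = 0.0389), against 0.40 ± 0.25 (adjusted p = 0.466) on 6 libraries. Ins1 had a log2 fold change of 0.02 ± 0.04 (adjusted p = 0.898) on the 5 libraries, and Igf1 had 0 counts in all 6 libraries. The level of Ins2 was 21510 CPM in Rosa26 gRNA replicate 1, against 45830 to 54190 CPM for the other 5, and its call was lost in DESeq2 (adjusted p = 0.107), with upper quartile normalization (0.063) and with the stricter count filter (0.0978). Leaving out Rosa26 gRNA replicate 2 or 3 leaves 1 control library, and most calls over all genes were then lost. The pathway calls were lost as well, apart from that of Ins2 without replicate 3. No adaptor, PI3-kinase subunit, phosphatase or mTOR gene passed among the 9, 7, 15 and 14 tested. The genes with the smallest p in these lists were the adaptor Grb14 (log2 fold change 0.18, adjusted p = 0.131), the catalytic subunit Pik3ca (-0.14, 0.218), the insulin receptor phosphatase Ptpn1 (0.10, 0.359) and the mTOR activator Rheb (0.15, 0.125). After the GC and length correction Grb14 (0.28, edgeR adjusted p = 0.0107) and Rheb (0.21, 0.0169) passed, and the 4 pathway genes then called, all higher, were these 2 with Ins2 and Igf2os.

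Foxo6, a member of the FoxO factors that AKT restrains, rose. It stood at 19.2, 27.2 and 28.6 CPM with the Rosa26 gRNA and 33.8, 33.9 and 36.4 CPM with the JunD gRNA, groups that did not overlap. Its log2 fold change of 0.32 ± 0.07 (SE, edgeR adjusted p = 0.0104) went to 0.18 (adjusted p = 0.147) after the GC and length correction, at a GC content of 69.1%, and was 0.47 ± 0.14 (adjusted p = 0.417) on 6 libraries. The other FoxO genes Foxo1, Foxo3 and Foxo4 had log2 fold changes of 0.02, -0.04 and -0.10 and did not pass. Akt1 missed the threshold on the 5 libraries with 0.16 ± 0.05 (edgeR adjusted p = 0.0596) and had 0.27 ± 0.10 (adjusted p = 0.417) on 6. It passed in 5 of the 9 other settings on the 5 libraries (lowest adjusted p = 0.017, limma-voom with sample weights), while the GC and length correction took it to 0.09 (adjusted p = 0.342).

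Pappa2, the gene of a secreted protease that cleaves IGFBP3 and IGFBP5, was abundant and fell. Its level was 4427, 3665 and 3751 CPM with the Rosa26 gRNA and 3533, 3427 and 3190 CPM with the JunD gRNA, without overlap. The log2 fold change of Pappa2 was -0.13 ± 0.03 (SE, edgeR adjusted p = 0.0306) on the 5 libraries and -0.22 ± 0.08 (adjusted p = 0.417) on 6. Corrected for GC content and length it was -0.07 (adjusted p = 0.076) on the 5, and its call was also lost without JunD gRNA replicate 2 (adjusted p = 0.0671). Pappa, whose product cleaves IGFBP4, was scarce, at 0.838 to 1.42 CPM. Of the other binding protein genes, Igfals, the acid-labile subunit of the circulating IGF complex, stood at 33.1 to 60.4 CPM and did not pass (log2 fold change 0.13, adjusted p = 0.28). Igfbp6 stayed under 1 CPM, and Igfbp1, Igfbp2 and Igfbpl1 were too low to test.

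**Figure D5:**
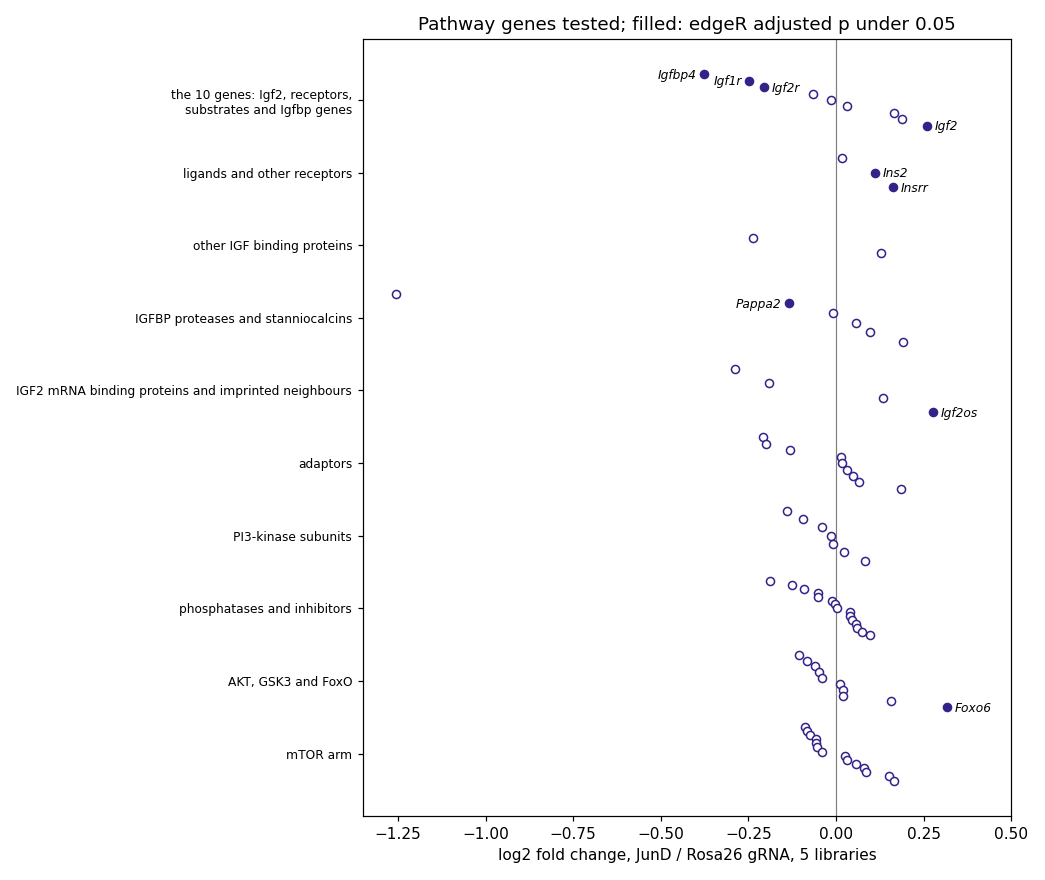
Each point is 1 tested gene, with its edgeR log2 fold change on 5 libraries on the x axis and its list on the y axis; filled points, with names, have an adjusted p under 0.05. Outside the 10 genes, Ins2, Insrr, Igf2os and Foxo6 are filled on the higher side and Pappa2 on the lower side.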

How the data were processed

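RNA-seq was deposited for 6 libraries, and the values used are the authors' raw counts per Ensembl gene, 1 table per library with 53379 identifiers. TopHat2, featureCounts and mm10 are named in the submitters' processing notes, while no source used here gives the annotation release, the strand setting or the treatment of reads in several places or genes. Symbols matched 53274 identifiers without the version number. Coordinates, exon lengths and GC content came from GENCODE M21 (GRCm38), and promoter sequences from RefSeq (GRCm38.p6), where 9 of the 10 genes had an entry and Insr had none.

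Sample titles gave the group and replicate number. The comparison used edgeR 4.0.16 (R 4.3.3) after filterByExpr and TMM scaling, with a quasi-likelihood fit on group alone and two-sided p-values adjusted by Benjamini-Hochberg over all tested genes, on all 6 libraries and on 5 without Rosa26 gRNA replicate 1. SE is the absolute log2 fold change over the square root of F, and is approximate. Alternatives were RLE and upper quartile factors, DESeq2 1.42.0, limma-voom (limma 3.58.1) with and without sample weights, no count filter or a mean of at least 2 CPM, a block for the replicate number, removal of each library, and offsets from splines (5 degrees of freedom) of GC content and transcript length. The fits were also run on simulated counts with known fold changes. Those counts had no deviating library and no GC trend, so they do not show how the fits handle these features. The 10 genes, the pathway and marker lists and the 5-library fit were chosen with earlier results of these data known. Named were the 10 genes, Jund, Ins1, Ins2, every called pathway gene and, in each pathway list, the gene with the smallest p on 5 libraries; the marker genes, H19, Airn, Pappa, Akt1, Igf1, other FoxO and Igfbp genes and the motifs were named after their values were seen. No library pair agreed within sampling noise.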

Additional observations from a re-analysis of the deposited data

How the results depend on the processing

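With 6 libraries, limma-voom with sample weights called 4 of the 9 genes and 2 other pathway genes, where edgeR called 0. Leaving out 1 library gave 0 to 4 of the 9 and 0 to 5 other pathway genes, in each case above 0 only without Rosa26 gRNA replicate 1. Over all genes the count was 67 in DESeq2, 293 with sample weights, 86 without a count filter and 25 after the GC and length correction, against 0 in edgeR, and 0 to 523 when 1 library was left out. On the 5 libraries the 9 other settings each called 4 of the 9 genes, 1 higher and 3 lower, and leaving out 1 more library called 0 to 4, with 0 without Rosa26 gRNA replicate 2 or 3. Of the other pathway genes 5 were called, 3 with upper quartile factors and 0 to 7 with 1 library left out. Over all genes the 523 calls became 820 with sample weights, 870 without a count filter, 832 with the replicate block and 46 to 672 with 1 library left out. The sign turned for Insr after the GC and length correction (0.017 on 6 libraries, 0.0054 on 5) and for Irs1 (0.056 and 0.036). It also turned for Irs1 on the 5 libraries without Rosa26 gRNA replicate 2, with a range of -0.074 to 0.052 over the libraries left out, and for Igfbp5 without that library (range -0.14 to 0.16 on 6 libraries and -0.039 to 0.41 on 5) or, on 6, without JunD gRNA replicate 2 (-0.063). The cause was not tested. Same-numbered libraries correlated at 0.0555, -0.0393 and 0.0742 in their deviations from the group means. Rosa26 gRNA replicate 1 stood apart and shifted the mean of its group, so these correlations cannot tell whether the numbers pair the samples. On the 5 libraries JunD gRNA replicate 1 has no same-numbered control, so the replicate block there compares the groups on replicates 2 and 3 only. With the replicate block 0 of the 9 genes were called on 6 libraries and 4 on 5, as without it. Of the other pathway genes 0 were called on 6 and 4 on 5, against 0 and 5 without it, and over all genes 0 and 832, against 0 and 523. Not every sample correlated best with its own number. Low counts limit Igfbp3 and Igfbp5, and the stricter filter left no value for Igfbp5.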
